A study of Papio hamadryas with 14 samples.

Results

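The enzymes described here break down amino acids or move the one-carbon units that this breakdown supplies. The list holds 52 genes in 5 groups: serine and glycine, arginine and its neighbours (proline, glutamate, glutamine and asparagine), the folate and methionine cycles with betaine and transsulfuration, the aromatic amino acids with tryptophan and lysine, and the branched chain amino acids. A gene was included when the platform annotation gave at least 1 probe set to it alone, and 46 of the 52 met this, out of 9580 genes named in the same way. GLDC, AGXT2, DMGDH, SARDH, GSTZ1 and HIBADH were not analysed here. Where several probe sets named a gene, the brightest one across the fetal samples stood for it.

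Whole kidneys of the baboon Papio hamadryas were measured on human Affymetrix arrays, 1 kidney sample per array. Fetal kidneys came from 60 days of gestation (60dG, 2 arrays) and from 90, 125 and 160 days (90dG, 125dG and 160dG, 3 arrays each). The adult group holds 3 animals aged 6, 12 and 7 years, on another array type, so adulthood and array type cannot be told apart. No genotype, strain or treatment is named for any group, and the fetal samples of a stage are labelled as separate biological replicates. Values are signal intensities without a unit, and a level can be compared between samples for 1 gene but not between genes.

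Amino acids filtered by the glomerulus are taken back by the proximal tubule, which also metabolises part of them. The kidney makes arginine from citrulline in a pair of reactions, catalysed by argininosuccinate synthase (ASS1) and argininosuccinate lyase (ASL), and releases it to the blood. It also breaks down hydroxyproline, makes serine and glycine, and holds betaine-homocysteine methyltransferase, which turns homocysteine back into methionine with betaine as the methyl donor. Serine, glycine and betaine feed one-carbon units to the folate and methionine cycles, which dividing cells draw on to make nucleotides.

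One early library stood apart. Replicate 2 of 60dG had a signal of 1096.5 for STAR and 4960.3 for CYP17A1, both genes of adrenal steroid synthesis, against at most 13.3 and 182.7 on any other fetal array. The 7 adrenal, chromaffin or neural crest genes measured summed to 7826 on that array and to 265.4 on replicate 1 of 60dG. The differences and counts of enzymes that rest on 60dG are therefore also given without it. Depth has no meaning for arrays, and the number of arrays limits the precision. The median signal per array was 172.9 to 194.6 in the fetal groups and 210.2 to 214.4 in adults. The GAPDH 3' to 5' control ratio, a sign of RNA quality, was 1.782, 2.465 and 3.434 on the 90dG arrays and 1.623 to 1.987 on the other fetal arrays. Of the markers measured, 14 of 15 for the proximal tubule and 7 of 9 for other kidney cells had a fetal mean above the threshold for dim genes given below, against 3 of 13 for hepatocytes and 0 of 7 of the adrenal, chromaffin or neural crest genes.

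Fetal stages were compared with limma on log2(signal + 16) over the 11 fetal arrays. Genes with a fetal mean above 7.60 on that scale (a signal of 177.8) were tested, 5278 in all. Of the 46 enzymes 30 were tested and 16 were too dim. The nearest inside the threshold were BCKDHA and BHMT2, with fetal means of 7.599 and 7.602. The nearest outside were SHMT2 at 7.581 and PCCA at 7.463. A gene was called when its p-value, adjusted over all 5278 genes by the Benjamini-Hochberg method, was under 0.05.

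Across gestation the arginine-synthesis enzymes ASS1 and ASL, the hydroxyproline enzyme PRODH2 and the methyltransferase BHMT2 were called higher at 160dG than at 60dG. None of the 30 tested enzymes was called lower. The 4 of 30 called higher (13.33%) stand beside 6.92% of all tested genes called higher and 4.72% called lower. Over the 4 stages together the moderated F called 5 of 30 (ASS1, ASL, PRODH2, BHMT2 and HIBCH), or 16.67%, against 18.2% of all genes, which is no more than the background. The linear trend called BHMT2, CTH and PRODH2 higher and none lower, 3 of 30 against 4.83% and 4.91% of all genes. From 60dG to 90dG, ASS1 and PRODH2 were called higher and none lower, 2 of 30 against 5.53% of all genes called higher and 3.58% called lower. The step between 90dG and 125dG gave no limma call among the 30, against 5.17% of all genes, and 6 passed at an unadjusted p under 0.05. The last step, up to 160dG, gave none either, against 0.322% of all genes, with 0 at an unadjusted p under 0.05.

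Over all 30 tested enzymes, the called ones included, the differences lay mostly above 0. From 60dG to 160dG 24 of the 30 enzymes had a positive estimate, with a median of 0.316 (log2), while the median of all genes was -0.010. Without overlap between the 60dG and 160dG arrays, 12 of the 30 were higher (21.0% of all genes were), and PHGDH, PSAT1 and MTHFD2 were lower (21.9% of all genes were). Of the 46 enzymes, 24 (52.2%) had their lowest group mean at 60dG, compared with 21.9% of all genes. Without 60dG replicate 2 these counts were 23 of 30 positive (median 0.333, all genes -0.012), 14 higher and 3 lower without overlap (31.96% and 33.27% of all genes), and 26 of 46 lowest at 60dG (56.5%, against 27.2%). The members were chosen with results of these arrays known, so these counts describe the list and carry no test.

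**Figure D1:**
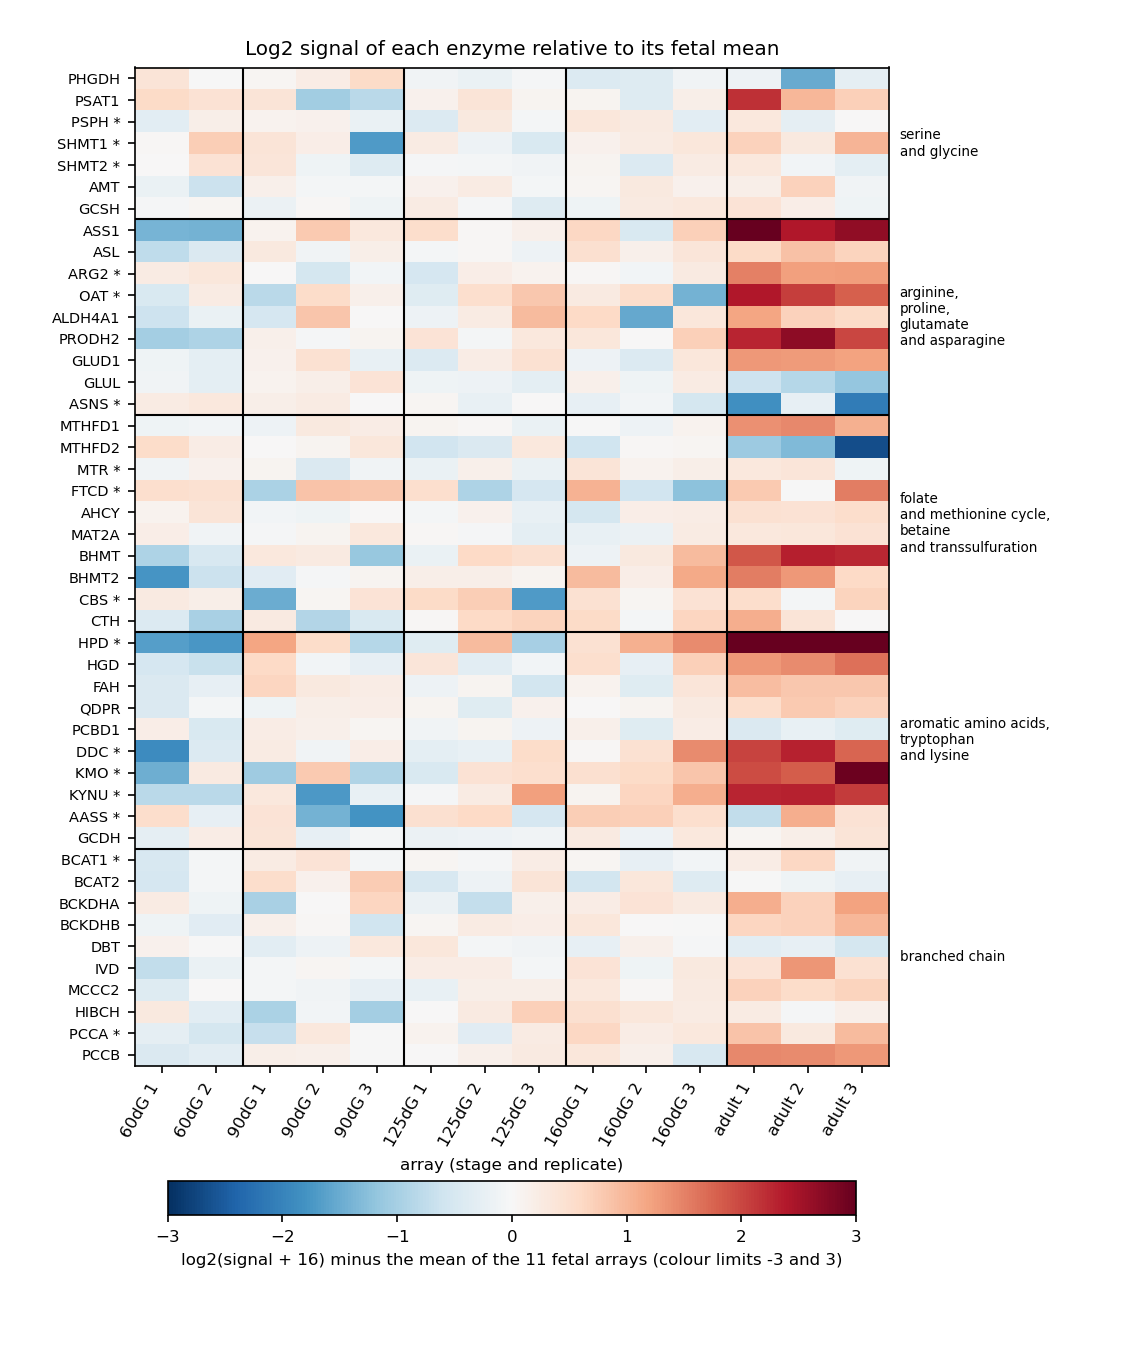
Log2 signal of the 46 enzymes (rows, grouped by role) on the 14 arrays (columns), each as the difference from that enzyme's mean over the 11 fetal arrays, on a colour scale limited at -3 and 3. Both 60dG columns are low for ASS1, PRODH2 and HPD, and the 3 adult columns are high for the same genes and low for MTHFD2.

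ASS1 joins citrulline to aspartate and is the rate-limiting enzyme of arginine synthesis. Both 60dG signals were low, 430.6 and 427.2, and the others were 1256, 2012 and 1458 at 90dG, 1685, 1199 and 1297 at 125dG, and 1782, 842.3 and 1913 at 160dG. All 9 later fetal arrays lay above both 60dG arrays, and the 3 later stages overlapped one another. ASS1 rose by 1.81 ± 0.30 up to 90dG (log2, SE; limma adjusted p = 0.003774), and 160dG exceeded 60dG by 1.69 ± 0.30 (adjusted p = 0.002352). Neither call was lost when any single array was left out. Its slope over all 4 stages was not called (0.119 per 10 days, adjusted p = 0.1056), and its group means were 1576 ± 391.3 at 90dG (SD, n = 3) and 1513 ± 584.3 at 160dG (SD, n = 3).

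ASL, the next enzyme, splits argininosuccinate into arginine and fumarate. Its signal was 121.1 and 158.5 at 60dG, 270.7, 202.9 and 247.8 at 90dG, 210.5, 223.8 and 196.3 at 125dG, and 312.8, 243.1 and 284.6 at 160dG. Here too the 60dG arrays were the lowest. The difference between 160dG and 60dG was 0.93 ± 0.23 (log2, SE; limma adjusted p = 0.01614). The call was lost without 60dG replicate 1 (adjusted p = 0.174) or 160dG replicate 1 (0.0592). The F call (adjusted p = 0.04664) was lost in 10 of the 11 fits that left out 1 array.

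PRODH2 oxidises hydroxyproline, which is released when collagen is turned over. Its signal was 231 and 249 at 60dG, 545.1, 469.7 and 515.8 at 90dG, 652.7, 464.7 and 607.8 at 125dG, and 619.2, 492.1 and 809.2 at 160dG. The groups from 90dG on overlapped, and all of their arrays were above 60dG. It rose by 1.04 ± 0.22 up to 90dG (log2, SE; limma adjusted p = 0.01329) and by 1.33 ± 0.22 up to 160dG (adjusted p = 0.001318). The first of these was lost without 60dG replicate 1 (adjusted p = 0.11) or replicate 2 (0.0582), and the second was called in all 11 fits that left out 1 array. Its trend (0.110 ± 0.027 per 10 days, adjusted p = 0.0179) was lost when either 60dG array was left out (0.079 without replicate 1, 0.0713 without replicate 2) and when 160dG replicate 3 was (0.0638). Its F call was lost without 60dG replicate 1 (0.0507).

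The other enzymes of this group were not called in the fetus. ALDH4A1, which takes proline's carbon on to glutamate, was 0.21 ± 0.54 higher at 160dG than at 60dG, and its 160dG arrays were as far apart as 428.4, 86.3 and 361.5. GLUD1, glutamate dehydrogenase, differed by 0.15 ± 0.30 and GLUL, glutamine synthetase, by 0.29 ± 0.17. GLUL signals lay between 1050 and 1704 on the 11 fetal arrays. ARG2, OAT and ASNS, which split arginine, transfer ornithine's amino group and make asparagine, were too dim for the test. ASNS was 111.7 and 118.7 at 60dG and 75.6, 85.8 and 58.9 at 160dG.

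BHMT2 methylates homocysteine with S-methylmethionine as the donor. It had a signal of 41.3 and 107.7 at 60dG, 137, 173.4 and 190.6 at 90dG, 203.7, 203.4 and 188.1 at 125dG, and 356.1, 207.1 and 414 at 160dG. Each of the 160dG arrays was above every earlier array, and both 60dG arrays were below every later one. The difference between 160dG and 60dG was 1.97 ± 0.35 (log2, SE; limma adjusted p = 0.002012) and the slope 0.173 ± 0.034 per 10 days (adjusted p = 0.004196). Both were called in all 11 fits that left out 1 array, and the F call (adjusted p = 0.009134) was lost without 60dG replicate 1 (0.0583). BHMT2 lay just inside the threshold for dim genes and fell outside it when 1 in place of 16 was added before taking logs. It passed through its later stages, with log2 means of 6.396 at 60dG, 7.504 at 90dG, 7.743 at 125dG and 8.363 at 160dG. Both of its 60dG signals were under the threshold signal of 177.8, so the size of the difference depends on the number added. In the fits that left out 1 array the difference between 160dG and 60dG ran from 1.412 to 2.523.

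BHMT, the betaine-dependent enzyme of the same step, had signals of 163.5 and 227.1 at 60dG, 406.4, 396 and 139.7 at 90dG, 282.5, 498.8 and 463.9 at 125dG, and 292.4, 403.5 and 643.5 at 160dG. One 90dG array was lower than both 60dG arrays. The difference between 160dG and 60dG was 1.08 ± 0.42, which did not pass (limma adjusted p = 0.118).

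CTH cleaves cystathionine to cysteine in transsulfuration. Its signal was 141.4 and 90.4 at 60dG, 236.6, 98.5 and 136.6 at 90dG, 198.7, 302.6 and 318.3 at 125dG, and 293.7, 184.3 and 310.8 at 160dG. The slope was 0.117 ± 0.034 per 10 days (log2, SE; limma adjusted p = 0.04039). Its call was lost in 8 of the 11 fits that left out 1 array, and also with no threshold for dim genes. CTH passed that threshold through its later stages, with log2 means of 7.016 at 60dG, 7.358 at 90dG, 8.149 at 125dG and 8.091 at 160dG. The difference between 160dG and 60dG did not pass (adjusted p = 0.0657).

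The tested enzymes of the folate cycle and of S-adenosylmethionine turnover were not called. MTHFD2, the mitochondrial enzyme known for its high levels in embryonic and dividing cells, had signals of 370.8 and 293.8 at 60dG, 249.7, 266.7 and 318.3 at 90dG, 163.5, 181.3 and 313.6 at 125dG, and 159.4, 254.2 and 260.4 at 160dG. One array at 90dG and one at 125dG exceeded the lower 60dG array, and the difference between 160dG and 60dG was -0.55 ± 0.29 (log2, SE; limma adjusted p = 0.258). MTHFD1, its cytosolic counterpart, differed by 0.09 ± 0.19. MAT2A, which makes S-adenosylmethionine, differed by -0.09 ± 0.19 and AHCY, which clears S-adenosylhomocysteine, by -0.27 ± 0.24. MTR, FTCD and CBS were too dim for the test.

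**Figure D2:**
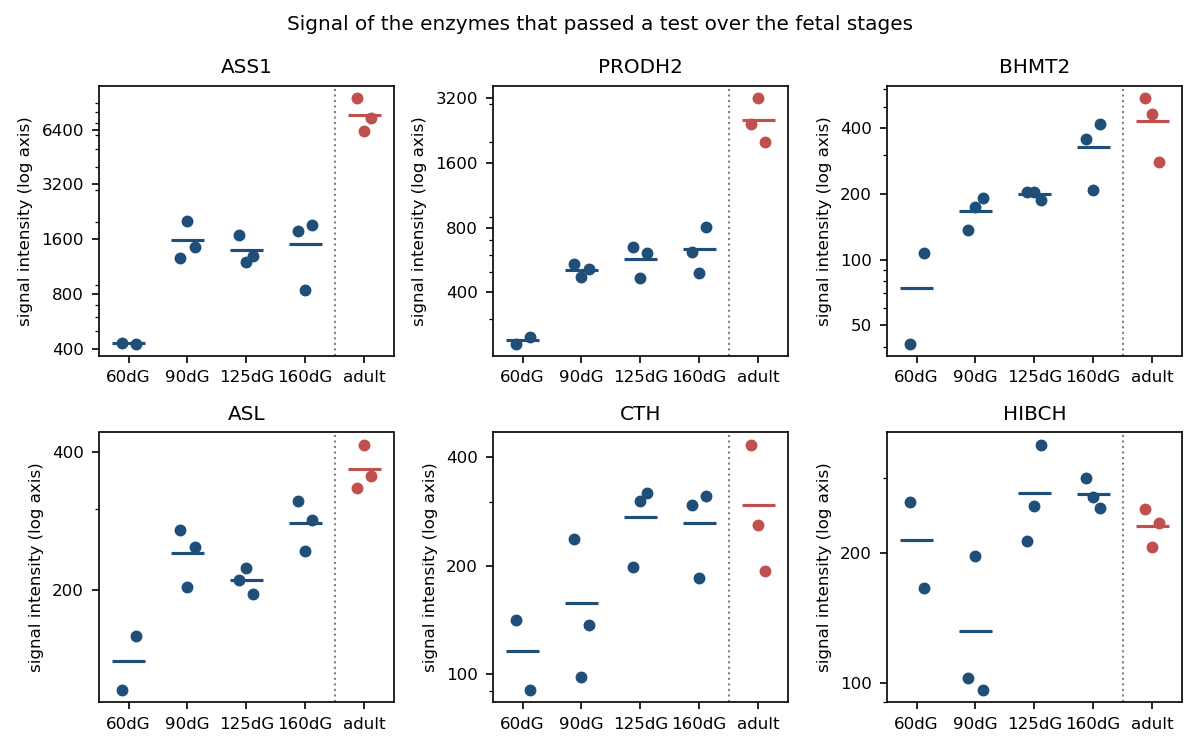
Signal (log axis) of the enzymes called by the F, the trend or the comparison of 160dG with 60dG, on each array (points) with the group mean. ASS1 and PRODH2 are higher on every array from 90dG on than at 60dG and higher again in the adult, past the dotted line that marks the change of array type, while HIBCH has its lowest arrays at 90dG.

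PHGDH and PSAT1 catalyse the opening steps of serine synthesis from a glycolytic intermediate. PHGDH had signals of 701 and 524.1 at 60dG, 555.4, 621.6 and 795.9 at 90dG, 492.1, 463.8 and 517 at 125dG, and 398, 399.7 and 493.1 at 160dG. The 90dG group had the highest mean, and the 125dG and 160dG arrays were all below those of both earlier stages. The difference between 160dG and 60dG was -0.49 ± 0.21 (log2, SE; limma adjusted p = 0.151), and the slope, -0.060 per 10 days, did not pass either (adjusted p = 0.0698). PSAT1 was 477.1 and 431 at 60dG, 412.9, 143.7 and 171.6 at 90dG, 346.3, 412.2 and 331.2 at 125dG, and 330.1, 235.2 and 359.1 at 160dG. Its low 90dG arrays were the 2 with the highest GAPDH 3' to 5' ratios, and the part of RNA quality in this was not tested.

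AMT and GCSH belong to the glycine cleavage system, which releases a one-carbon unit from glycine. AMT was 0.58 ± 0.19 higher at 160dG than at 60dG without overlap but was not called (limma adjusted p = 0.0672). GCSH differed by 0.15 ± 0.20. PSPH, SHMT1 and SHMT2 were too dim for the test, and SHMT1 reached only 6.8 on 90dG replicate 3.

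No enzyme of aromatic amino acid, tryptophan or lysine breakdown was called among the 5 of this group that were tested. HGD, which opens the ring of homogentisate, came nearest: its signal was 152.6 and 134.1 at 60dG, 346.2, 209.6 and 184.6 at 90dG, 292.2, 176.4 and 211.5 at 125dG, and 322.1, 185.6 and 374.2 at 160dG. All later arrays exceeded the 60dG arrays, and the difference between 160dG and 60dG was 0.91 ± 0.33 (log2, SE; limma adjusted p = 0.0921). FAH, the last step of tyrosine breakdown, differed by 0.38 ± 0.27, GCDH of lysine breakdown by 0.17 ± 0.25, and QDPR and PCBD1, which recycle the tetrahydrobiopterin cofactor, by 0.37 ± 0.22 and 0.13 ± 0.23.

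HPD, which makes homogentisate from the tyrosine keto acid, was among the enzymes too dim for the test. Its signal was 10.1 and 8.5 at 60dG, 169.6, 104.2 and 28.9 at 90dG, 47.2, 141.4 and 24.6 at 125dG, and 95.4, 154.2 and 201.8 at 160dG. The 60dG arrays were below all others, and the later stages overlapped one another. DDC, which decarboxylates dopa and 5-hydroxytryptophan, was 21.8 and 89.1 at 60dG, 147.8, 113.7 and 143.5 at 90dG, 97.9, 104.1 and 189.2 at 125dG, and 125.5, 173.8 and 354.4 at 160dG. With no threshold for dim genes, and p-values adjusted over all 9580 genes, limma called 6 of the 46 enzymes higher at 160dG than at 60dG and none lower, against 3.82% and 2.69% of all genes. To the 4 given above it added HPD, by 2.67 ± 0.62 (log2, SE; adjusted p = 0.01855), and DDC, by 1.77 ± 0.48 (adjusted p = 0.04094). Both 60dG signals of HPD lie below the 16 added before taking logs, so the size of its difference depends on that number and is no measured fold. With 1 or 64 added in its place the difference was 3.82 or 1.52 for HPD and 2.13 or 1.22 for DDC, and all 4 values were called (limma adjusted p of 0.00968, 0.0315, 0.0412 and 0.0471). The HPD call was lost without 60dG replicate 1 (adjusted p = 0.109), 60dG replicate 2 (0.101) or 160dG replicate 3 (0.0682). The DDC call was lost in 7 of the 11 fits that left out 1 array and was kept without 60dG replicate 2 (2.51 ± 0.53, adjusted p = 0.0184). KMO and KYNU of the kynurenine route were not called in that fit (adjusted p of 0.268 and 0.168).

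In branched chain breakdown no enzyme was called between 60dG and 160dG. The differences between 160dG and 60dG over its 8 tested enzymes ran from -0.10 ± 0.21 for DBT to 0.66 ± 0.25 for IVD (log2, SE; limma adjusted p = 0.107 for IVD), and 7 of the 8 were positive. IVD acts in leucine breakdown, as does MCCC2 (0.40 ± 0.20). BCAT2 (0.09 ± 0.31) removes the amino group, BCKDHA (0.24 ± 0.39) and BCKDHB (0.34 ± 0.23) belong with DBT to the branched chain keto acid dehydrogenase, and PCCB (0.39 ± 0.24) is a subunit of propionyl-CoA carboxylase. BCAT1 and PCCA were too dim for the test.

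HIBCH, which acts on valine, was the exception by the F (adjusted p = 0.0466). Its signal was 263.7 and 166.5 at 60dG, 102.5, 197.4 and 96 at 90dG, 213.5, 257.4 and 358.1 at 125dG, and 300.3, 271.3 and 254.4 at 160dG. Replicates 1 and 3 of 90dG were the lowest of all fetal arrays, and the other arrays of the 4 stages overlapped. The call was lost in 9 of the 11 fits that left out 1 array, and a second HIBCH probe set differed between 90dG and 60dG by -0.03 where the one used differed by -0.68.

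**Figure D3:**
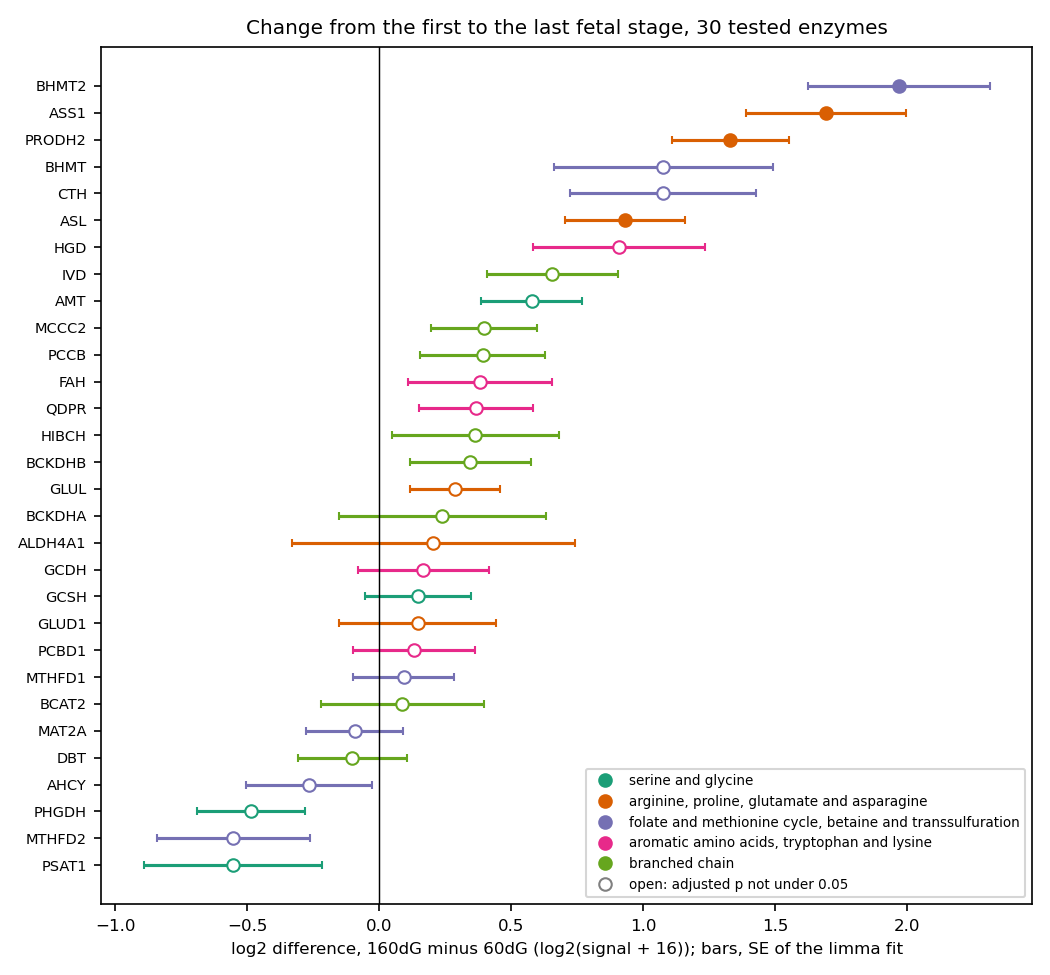
Difference between 160dG and 60dG (log2, x axis) for the 30 tested enzymes, coloured by role, with the standard error of the limma fit; filled points have an adjusted p under 0.05. BHMT2, ASS1, PRODH2 and ASL are filled on the right, and MTHFD2 and PSAT1 lie farthest to the left, both open.

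Probe sets of 1 gene did not always give the same value. For CTH and HGD the second probe sets, too dim for the test, also had positive differences between 160dG and 60dG, of 1.19 and 1.83. DBT had 3 probe sets, with differences of -0.10 for the one used, 0.84 and -0.13. For IVD they were 0.66 and 0.98 and for GCDH 0.17 and 0.62. The effect of baboon sequence on probes designed for human transcripts was not analysed here.

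Without 60dG replicate 2, the array with adrenal transcripts, the same 4 enzymes had higher estimates at 160dG than at 60dG. The differences were 2.52 ± 0.37 for BHMT2 (log2, SE), 1.69 ± 0.40 for ASS1, 1.38 ± 0.29 for PRODH2 and 1.10 ± 0.29 for ASL. In the same fit 90dG exceeded 60dG by 1.66 ± 0.37 for BHMT2, 1.81 ± 0.40 for ASS1 and 1.09 ± 0.29 for PRODH2. The CTH trend was lost (adjusted p = 0.122), and PHGDH was called lower by its trend (-0.078 ± 0.021 per 10 days, 0.0366). In that fit a single array stands for 60dG and is taken to vary like the others.

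In whole kidney, fewer cells of a type and less RNA per cell cannot be told apart. Between 60dG and 160dG the 14 tested proximal tubule markers had a median difference of 1.549 (log2), against 0.316 for the 30 tested enzymes. The summed signal of these markers, over 15 genes, was 3730 and 4499 at 60dG, 9721 to 11840 at 90dG, 11910 to 12410 at 125dG, 10010 to 19630 at 160dG and 26780 to 29920 in adults. Limma called 12 of the 14 tested markers higher at 160dG than at 60dG, against 6.92% of all tested genes. Cycling-cell markers moved the other way, from sums of 7088 and 7089 at 60dG to 1057 to 2039 at 160dG. Limma called all 8 tested ones lower, against 4.72% of all tested genes. These counts of called markers include 60dG replicate 2. On 60dG replicate 1 alone the sums were 3730 for the proximal tubule markers and 7089 for the cycling-cell markers. Hepatocytes share many of these enzymes. Their marker genes summed to 3012 to 5337 at 60dG, 5192 to 5772 at 90dG, 1425 to 2020 at 125dG, 1257 to 1340 at 160dG and 1928 to 3142 in adults. The brightest markers weigh most in such a sum. The median marker of an array was 6.7 to 7.43 (log2) at 60dG, 6.26 to 6.97 at 90dG, 6.27 to 6.87 at 125dG, 6.38 to 6.7 at 160dG and 7.01 to 7.42 in adults. APOB and FGB were under the threshold for dim genes on every array. The part of these cell types in the enzymes' differences was not tested.

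Each enzyme's signal was also expressed as a percent of the proximal marker sum of the same array. The percent itself depends on the probes, so it was compared only between samples for 1 gene. The marker sum rose from 3730 and 4499 at 60dG to 10010 to 19630 at 160dG. An enzyme with a steady signal therefore falls in percent, and a lower percent need not be a fall in signal. For ASS1 it averaged 10.52% at 60dG, 14.22% at 90dG, 11.5% at 125dG and 10.42% at 160dG, and the 160dG mean lay between the 60dG arrays at 9.495% and 11.54%. PRODH2 averaged 5.863%, 4.632%, 4.752% and 4.529%, BHMT2 1.75%, 1.529%, 1.642% and 2.264%, and ASL 3.384%, 2.186%, 1.74% and 2.059%. For HPD, whose 60dG signals were too dim to give a firm percent, the means were 0.2298%, 0.8719%, 0.5905% and 1.09%, and the lowest 125dG array (0.2065%) lay within the 60dG range. Of the enzymes measured, only BHMT2, HPD and DDC had a higher mean percent at 160dG than at 60dG. GCSH, for example, averaged 31.89% at 60dG and 10.88% at 160dG, and PHGDH 15.22% and 3.143%. The GCSH signal itself differed by 0.15 ± 0.20 (log2, SE) between these stages. In adults ASS1 was at 22.07% to 31.82%, above all fetal arrays (8.414% to 16.99%), and PRODH2 averaged 8.975%, with a lowest adult array of 7.491%. ASL and BHMT2 averaged 1.299% and 1.497% in adults, less than at 160dG, and for both of them the adult arrays (1.115% to 1.46% for ASL and 1.038% to 1.823% for BHMT2) reached values under the lowest 160dG arrays of 1.45% and 2.069%.

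**Figure D4:**
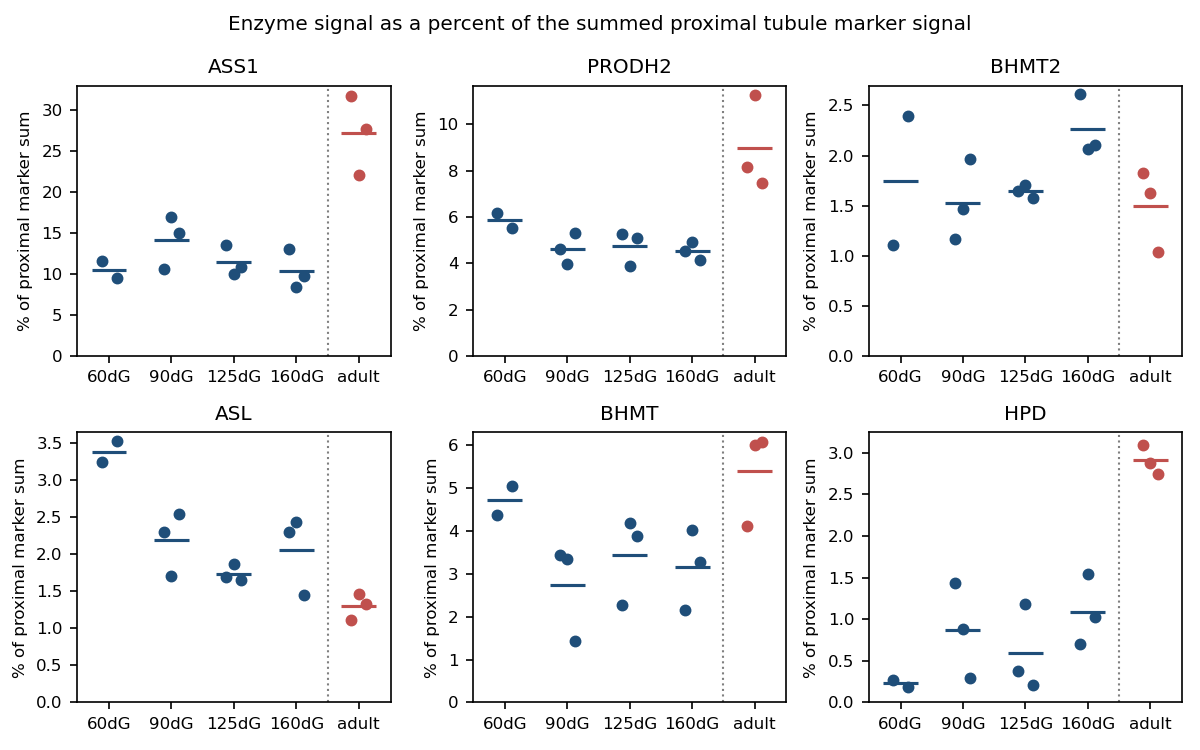
Enzyme signal as a percent of the summed signal of 15 proximal tubule markers on the same array (y axis, from 0), by group, with points for arrays and lines for group means. ASS1 at 60dG and 160dG averages 10.52% and 10.42%, and its adult arrays lie at 22.07% or above.

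For 6 pairs of isoenzymes or subunits, the log2 ratio of the pair within each array was followed over gestation. None of the slopes passed a two-sided permutation test over the 11 arrays (100000 resamples, adjusted over the 6 pairs). The lowest raw p was that of MTHFD1 over MTHFD2, 0.118 (adjusted 0.487), with a slope of 0.058 ± 0.033 per 10 days. BHMT over BHMT2 had a slope of -0.068 ± 0.054 and PCCA over PCCB of 0.047 ± 0.034 (permutation p of 0.243 and 0.209, adjusted 0.487 for both). SHMT1 over SHMT2, BCAT1 over BCAT2 and BCKDHA over BCKDHB had slopes of 0.029 ± 0.044, 0.026 ± 0.038 and -0.015 ± 0.057 (permutation p of 0.56, 0.504 and 0.793; adjusted 0.672, 0.672 and 0.793).

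Adult kidneys were set against 160dG as a description, with no test because of the array types. An enzyme was counted when its log2 difference, after subtracting the median difference of all genes, was at least 2-fold and the arrays did not overlap. Over all genes with no threshold for dim ones, 14 of the 46 enzymes were higher in the adult and 2 were lower, beside 10.1% and 11.2% of all genes. Among the 30 enzymes above the threshold 9 were higher and 1 was lower, beside 6.63% and 10.4%. Of the 46, 28 (60.9%) had their highest group mean in the adult, compared with 37.3% of all genes, and 8 (17.4%) had their lowest there, compared with 34.5%. The median difference subtracted was 0.124 over all 9580 genes and -0.135 over the 5278 above the threshold. The differences that follow use the first. Dim hepatocyte and adrenal markers also met the rule as higher in the adult, among them ALB (2.40), APOH (2.78), CYP11A1 (1.68) and CYP17A1 (1.32). TTR, CHGA and PNMT, also dim, did not meet it. The part of the array type in the adult differences of dim genes was not tested.

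ASS1 had signals of 9522, 6261 and 7442 in the adult, where the highest 160dG array had 1913, a difference of 2.29 ± 0.41 (log2, SE from 3 and 3 arrays) or 5.118-fold in the group means. PRODH2 was 2436, 3204 and 2006, 1.84 ± 0.28 above 160dG. OAT was 782.8, 620.7 and 505.2 in the adult and 165.7, 202.2 and 40.9 at 160dG, 2.17 ± 0.63 apart. ARG2 (1.14 ± 0.14) and GLUD1 (1.20 ± 0.22) were also higher without overlap, although a second, dimmer ARG2 probe set differed by -0.041. Enzymes of arginine, ornithine, proline and glutamate thus made up 5 of the 14 counted as higher. ASL, at 333.6, 414.2 and 354.1, also lay above its 160dG arrays but by less than 2-fold.

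The tyrosine and tryptophan enzymes made up another 5. HPD was 927.4, 816.2 and 736.6, 2.26 ± 0.30 above 160dG. KYNU was 548.8, 560.5 and 482.7, or 3.16-fold in the group means, and KMO was 507.2, 457.6 and 1021 (1.48 ± 0.37 above). DDC (1.27 ± 0.44) and HGD (1.02 ± 0.31) completed them. For KYNU the 3 other probe sets gave differences between 160dG and 60dG of -0.77, 0.12 and 1.44, so its fetal course depends on the probe set.

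BHMT was 1229, 1706 and 1625 in the adult, all above its highest 160dG array of 643.5. MTHFD1 was 1434, 1511 and 1154, 1.18 ± 0.14 above 160dG. MTHFD2 was 108.9, 90.5 and 26.1, below all fetal arrays and 1.64 ± 0.53 under 160dG on the log2 scale. The log2 ratio of MTHFD1 to MTHFD2 within an array averaged 0.587 at 60dG, 1.068 at 90dG, 1.285 at 125dG and 1.235 at 160dG. In adults it was 3.538 to 4.797, beyond the highest fetal array at 1.725.

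PCCB (1.26 ± 0.25) and PSAT1 (1.22 ± 0.49) were the other enzymes counted as higher in the adult. PSAT1 was 1486, 638.8 and 525.5, so that the animal of 6 years was far above the others. GLUL, at 826.9, 706.7 and 566, was the other enzyme counted as lower, 0.5066 times the 160dG mean. Its 2 other probe sets differed by -0.717 and -0.417, under 2-fold, so the count depends on the probe set. It met the rule over all genes and missed it among genes above the threshold, where the subtracted median was different. ALDH4A1 did the reverse: its difference was 0.89 ± 0.70 with the first median and 1.15 with the second. Its signals overlapped as deposited (lowest adult array 426.4, highest 160dG array 428.4) and separated only after the second median was subtracted. Without 160dG replicate 2 that difference was 0.479. ASNS was 14.4, 75.8 and 9.5 in the adult and overlapped 160dG.

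**Figure D5:**
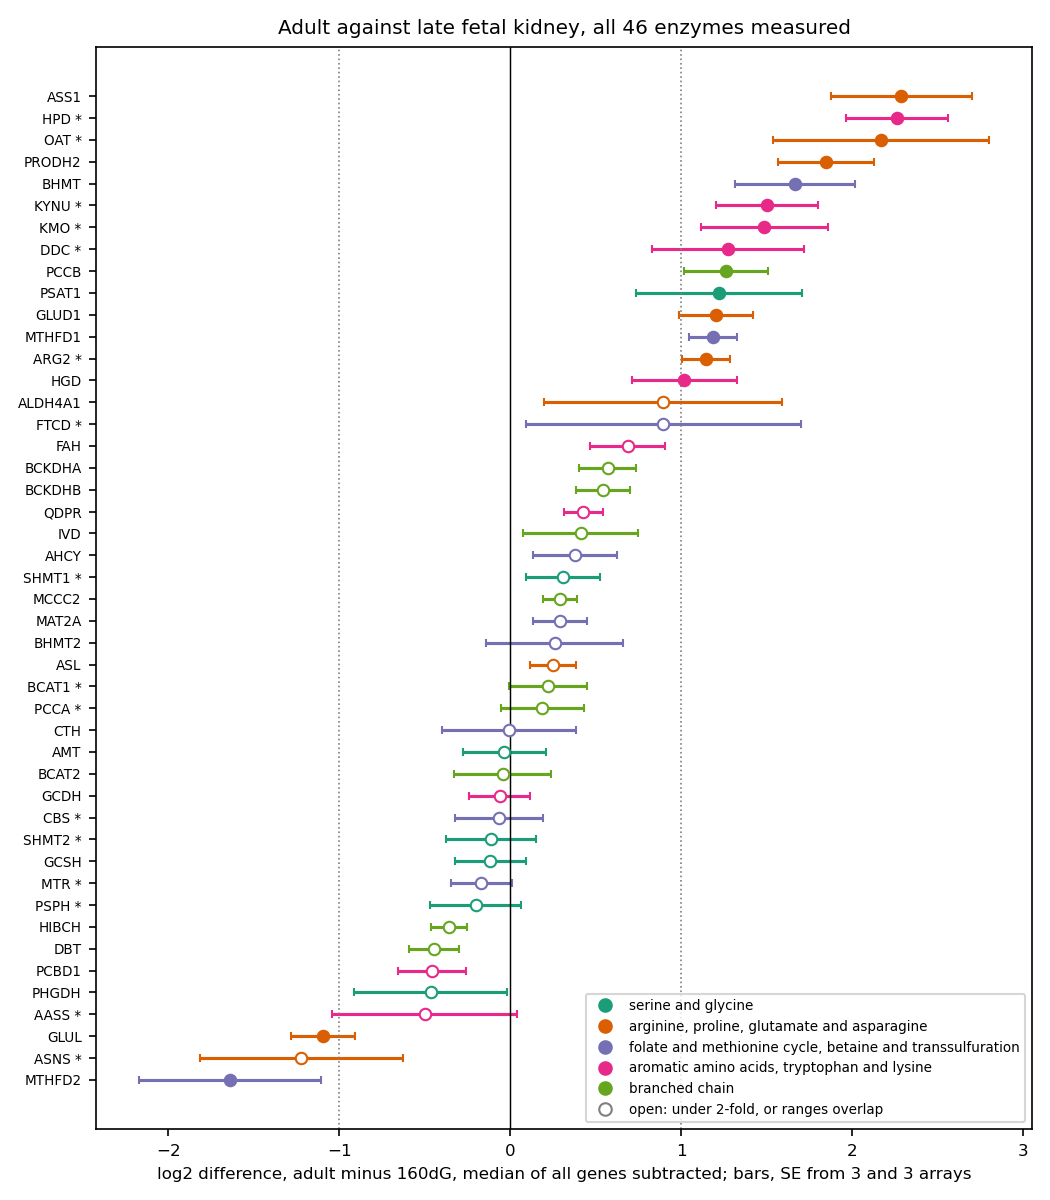
Difference between adult and 160dG kidneys (log2, x axis; median of all 9580 genes subtracted) for the 46 enzymes, coloured by role, with the standard error from 3 and 3 arrays; filled points are at least 2-fold apart without overlap. ASS1, HPD and OAT lie farthest to the right, and MTHFD2 farthest to the left of the filled points.

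Other genes of amino acid and one-carbon metabolism were counted from a list of 93, of which 61 were measured and 37 tested. Between 60dG and 160dG limma called 7 higher and none lower, 18.92% against the 6.92% and 4.72% of all genes given above, with a median of 0.372 (log2). GATM, which makes the creatine precursor guanidinoacetate from arginine and glycine, had the largest called difference, 3.46 ± 0.53 (adjusted p = 0.0007336). It went from 306.7 and 223.7 at 60dG to 4323, 1331 and 4849 at 160dG. ALDH1L1, which oxidises 10-formyltetrahydrofolate, rose by 2.03 ± 0.27 (adjusted p = 0.0002255), ACADSB, of isoleucine breakdown, by 1.57 ± 0.28 (0.002186), and HAO2, a peroxisomal hydroxy acid oxidase, by 1.44 ± 0.39 (0.02701). ACAT1, ASPA and DLD were the others. Leaving out 1 array left GATM, ALDH1L1, ACADSB and ACAT1 called in all 11 fits. HAO2 was lost in 4 of them (without either 60dG array, 160dG replicate 1 or 160dG replicate 3), DLD in 9, and ASPA without 60dG replicate 1. Over the 11 fits the difference ran from 3.12 to 4.046 for GATM, 1.746 to 2.215 for ALDH1L1, 1.044 to 2.091 for ACADSB and 1.192 to 1.9 for HAO2. By step, limma called 5 of the 37 higher between 60dG and 90dG (13.51%), against 5.53% of all tested genes called higher. Between 90dG and 125dG it called 1 (2.7%), against 5.17% of all genes in either direction. In the last step it called 0, against 0.322% of all genes, and 4 passed at an unadjusted p under 0.05.

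In the adult, 13 of the 61 other genes were counted as higher than at 160dG and none as lower, beside the same 10.1% and 11.2% of all genes. Among the 37 above the threshold 11 were higher and none lower, beside 6.63% and 10.4%. Of the brighter genes HAO2 was 1.64 ± 0.47, ALDH1L1 1.44 ± 0.32 and ACAT1 1.07 ± 0.33 above 160dG (log2, SE). AGXT, TDO2, DAO and TYMS, given next, had fetal means under the threshold for dim genes. AGXT, which removes glyoxylate by transamination, was 416.8, 133.4 and 98.9 in the adult and 17.2, 5.9 and 49.7 at 160dG. TDO2, the opening step of the kynurenine route, was 181.3, 176.1 and 210.4 in the adult and at most 80.8 on any fetal array. DAO, D-amino acid oxidase, was 731.2, 793.9 and 575.1 in the adult and 140.5, 133.6 and 265.2 at 160dG. TYMS, thymidylate synthase, was 16.6, 38.8 and 70 at 160dG and 86.5, 279.8 and 231 in the adult.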

How the data were processed

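Total RNA from whole baboon kidney was labelled with biotin and hybridised to human arrays, per the labels. The authors deposited intensity values on a linear scale. GCOS is the tool that the submitters' processing notes name; which version, algorithm and scaling it used is not given in the sources used here. They were used without rescaling. Of 16186 probe sets, 14068 named 1 gene in the platform annotation, 735 several and 1340 none, and 43 were controls; only the first kind was named. The fits used limma 3.58.1 (R 4.3.3; lmFit, then eBayes with its intensity trend), took in the 11 fetal arrays together, and the p-values were adjusted over all tested genes. The code was tested on simulated data.

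Every enzyme of the list is named, with values on each array where the F, the trend or 160dG against 60dG called it; of other pathway genes up to 4 each way with the largest called difference are named. BHMT, HPD, HGD, DDC, PHGDH, PSAT1 and MTHFD2 were also given by fetal array, chosen after their values were seen. The enzymes and lists were chosen with earlier results of these data known. Alternatives were other pseudocounts, filters, scaling and probe set rules, a replicate block, a quality covariate and leaving out arrays; leaving out arrays for HPD, DDC and the other pathway genes, other pseudocounts for HPD and DDC, and the counts without 60dG replicate 2 were added after seeing the data. No promoter or protein sequences were used here.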

Additional observations from a re-analysis of the deposited data

How the results depend on the processing

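The pseudocount, the intensity trend of eBayes and quantile normalization left each count of called enzymes within 1.5 times. With the mean over all probe sets of a gene, 4 enzymes were called from 60dG to 90dG (2 in the report) and 1 from 90dG to 125dG (DBT). With a threshold at the 0.75 quantile, 2 were called between 60dG and 160dG, 2 by the F and 1 by the trend, and 3 stood apart in the adult. With no threshold, 3 were called by the F and 16 stood apart in the adult, where the report's rule with a threshold gives 10. Without the 90dG group the F called 3 and the trend 6, adding ASL, ASS1 and BHMT, and with the GAPDH ratio as a covariate the F called 3. Leaving out 1 array gave 1 to 3 calls from 60dG to 90dG, 0 to 2 from 90dG to 125dG, 3 to 6 between 60dG and 160dG, 1 to 6 by the F and 1 to 4 by the trend, and 8 to 11 enzymes apart in the adult. No called difference turned its direction, and no pair of isoenzymes was called under any alternative run. The CTH trend was lost with no threshold (limma adjusted p = 0.0627). Replicate numbers did not pair the samples: over 15 pairs of arrays with 1 number, deviations from the group means correlated between -0.114 and 0.179, with 2 pairs over 0.1. With the replicate number as a replicate block limma called 2, 0, 0 and 4 enzymes in the steps and between 60dG and 160dG, 3 by the F and 3 by the trend, where PHGDH passed and CTH did not. The causes of these changes were not tested. The share of all genes called under each alternative is not given here, so these counts are not set against a background. The number of 60dG arrays, dim probe sets and the change of array type limit what these values can show.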
